A study of Mus musculus with 24 samples.

Results

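The 10 genes described here encode transcription factors that act downstream of the T cell receptor: the FOS proteins Fos, Fosb and Fosl2, the JUN proteins Jun, Junb and Jund, the BATF proteins Batf and Batf3, and the calcium-regulated factors Nfatc1 and Nfatc2. They were chosen by name from the gene table, in which each name occurred in 1 row, so they are 10 of 56748 genes. All 10 passed the filter on low counts, which left 15885 genes for testing. Their levels were read in 24 bulk RNA-seq libraries of wild-type mouse T cells made in culture, 6 each of Th1, Th17, regulatory (Treg) and activated CD8 cells. In every cell type 1 library came from cells given the vehicle DMSO and 5 came from cells given 0.1 µM of a kappa opioid receptor (KOR) agonist (WMS-64, WMS-75, WMS-76, WMS-83 or WMS-200) for up to 5 days. The stated aim was to learn how such agonists, which are derived from perhydroquinoxaline, act on T cells. The sources used here give no strain, age or number of animals, and polarization followed a supplier's standard protocols. There is 1 library for each treatment in a cell type, so p-values measure only the spread between these libraries, which may be technical.

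FOS and JUN proteins share a basic region that grips DNA and a leucine zipper that joins them in pairs. A FOS-JUN or JUN-JUN pair is called AP-1. T cell receptor and costimulatory signals raise AP-1 through MAP kinases, while calcium entry activates the phosphatase calcineurin, which frees NFAT proteins to enter the nucleus. NFAT and AP-1 bind side by side at cytokine genes such as Il2. BATF proteins are small members of the same zipper class that pair with JUN proteins and, with Irf4 or Irf8, bind composite elements. BATF is needed for Th17 development and for effector CD8 cells, and Batf3 is best known for its role in cross-presenting dendritic cells.

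The labels were checked against marker genes. Ifng and Tbx21 were high in Th1 and CD8 libraries, Il17a and Il17f in Th17, Foxp3 and Ikzf2 in Treg, and Cd8a, Cd8b1 and Gzmb in CD8. Total counts ran from 15188284 to 21946887 per library. The Treg libraries stood apart in composition: genes of ribosomal proteins took 2.17% ± 0.38 (SD, n = 6) of their counts, while CD8 had 9.73% ± 0.33, Th17 10.5% ± 1.07 and Th1 10.9% ± 0.45. The summed level of 5 dendritic cell markers in CPM (counts per library scaled for depth with TMM factors) was 29.1 to 33.9 in Treg, 22.6 to 27.7 in CD8, 20.5 to 25.5 in Th1 and 3.47 to 6.92 in Th17. Nearly all of that came from Zbtb46, while Clec9a had 2 counts in all Th1 libraries together and 0 in every other library, and Xcr1 had at most 45 counts in a cell type. The CD4 markers were lowest in CD8 but present there. Cd4 had a mean of 181 CPM in CD8 against 458 to 754 elsewhere, and Zbtb7b had 89.3 against 144 to 163.5. Means of Cd8a were 84.1 CPM in Th17 and 389 in CD8, and those of Gzmb were 167 and 1913. Whether cultures held a mixture of T cell types was not tested. Column names hold an unexplained number after the letters WT, the same for all Th1 libraries (4) and for all CD8 libraries (2). Within Treg, number 3 marks the DMSO and WMS-200 libraries and number 2 the remaining 4. Within Th17, DMSO has number 2, WMS-83 number 3 and the remaining 4 number 1. Number 4 occurs in Th1 alone, where it therefore cannot be told apart from the cell type. Number 1 occurs in Th17 alone.

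The promoters of 5 members are shown because the cell type results turn on them: Batf, Batf3, Jund and Junb were all lowest in Treg, and Fos was highest in CD8. Fosl2 and Nfatc2 were also lowest in Treg, and their promoters are not printed. Each line gives the 250 bases before the annotated start in RefSeq on GRCm38.p6, written 5′ to 3′ on the gene's strand, and capitals mark motif matches.
Batf (chr12:85686470-85686719, plus strand): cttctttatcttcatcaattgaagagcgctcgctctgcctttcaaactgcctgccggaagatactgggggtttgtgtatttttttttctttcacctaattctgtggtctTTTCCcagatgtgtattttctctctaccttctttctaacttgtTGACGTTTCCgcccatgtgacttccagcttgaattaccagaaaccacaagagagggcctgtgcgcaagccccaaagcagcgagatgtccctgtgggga
Batf3 (chr1:191098164-191098413, plus strand): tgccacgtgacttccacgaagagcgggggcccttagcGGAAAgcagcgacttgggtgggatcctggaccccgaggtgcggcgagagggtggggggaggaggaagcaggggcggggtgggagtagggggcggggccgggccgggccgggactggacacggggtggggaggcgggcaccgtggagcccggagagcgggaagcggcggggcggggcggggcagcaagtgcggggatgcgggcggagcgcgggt
Jund (chr8:70697489-70697738, plus strand): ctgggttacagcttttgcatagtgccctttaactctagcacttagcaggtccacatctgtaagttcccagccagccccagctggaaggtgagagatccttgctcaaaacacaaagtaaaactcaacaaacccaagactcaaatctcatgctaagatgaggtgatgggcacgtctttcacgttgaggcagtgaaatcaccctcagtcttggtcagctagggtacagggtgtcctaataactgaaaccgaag
Junb (chr8:84978749-84978998, minus strand): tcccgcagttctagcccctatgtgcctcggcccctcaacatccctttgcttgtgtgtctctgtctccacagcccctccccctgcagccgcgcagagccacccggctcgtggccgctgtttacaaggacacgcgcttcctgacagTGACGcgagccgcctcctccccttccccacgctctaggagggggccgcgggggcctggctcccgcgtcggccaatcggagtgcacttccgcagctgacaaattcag
Fos (chr12:85473640-85473889, plus strand): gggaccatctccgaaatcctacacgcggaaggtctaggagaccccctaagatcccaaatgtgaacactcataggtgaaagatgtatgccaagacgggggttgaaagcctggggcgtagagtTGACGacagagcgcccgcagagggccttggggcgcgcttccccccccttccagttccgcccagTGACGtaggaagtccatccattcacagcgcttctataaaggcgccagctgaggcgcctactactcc
Both strands were searched for the AP-1 site TGANTCA, the cyclic AMP response element TGACGTCA, the CArG box of serum response factor and the NFAT core GGAAA. RefSeq promoters were found for 9 of the 10 members, with 10 start sites. Within these 250 bases the AP-1 site, the full cyclic AMP response element and the CArG box matched in none of them. The shares were 6.75%, 1.55% and 1.47% of 32851 promoters of the same length. Bases further upstream or after the start were not searched, so sites there would be missed. An NFAT core is common, with 55.6% of promoters holding at least 1, and it matched in Batf at -141 to -137 and -93 to -89 from the start, both on the opposite strand and so read as TTTCC, and in Batf3 at -213 to -209. It also matched in Jun at -59 to -55, once at the first start site of Nfatc2 and 3 times at the second. The core TGACG, which is also the first part of the cyclic AMP response element and was searched after the promoters had been seen, is in 17.8% of promoters. It matched in Fos at -129 to -125 and at -66 to -62, in Fosb at -60 to -56, in Junb at -106 to -102 and in Batf at -98 to -94, where it directly adjoins an NFAT core. The site TGACATCA, a variant bound by JUN-ATF pairs, was also searched after the promoters had been seen. It is in 2.93% of promoters and matched in Jun at -45 to -38. None of the 6 motifs searched matched in the Jund window. The matches are letters in a sequence and carry no evidence of binding.

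Most members differed between cell types, as most genes did. In a test of the 4 cell types together, 9 of 10 members differed at an edgeR adjusted p under 0.05, beside 87.4% of all genes tested, so the count itself is near the background. The ratio of the highest to the lowest cell type mean ran from 1.26 for Nfatc1 and 1.37 for Fosb to 6.35 for Batf and 97.6 for Batf3. Relative to Treg, 7 members were higher in Th1 (37.3% of all genes) and 1 was lower (40.1%), 7 were higher in Th17 (36.5%) and 0 lower (38.3%; also 0 at an unadjusted edgeR p under 0.05, with DESeq2 and with limma-voom), and 7 were higher in CD8 (37.8% of all genes were lower in Treg) and 1 lower (40.2% were higher in Treg). The median member was 0.62 above Treg in Th1 and 1.06 above it in Th17 on the log2 scale, where the median of all genes was -0.09 in both. It was -0.89 in Treg minus CD8, where the median of all genes was 0.08. Between Th1 and Th17, 3 members were higher in Th1 (24.1%) and 3 lower (23.2%). Between Th1 and CD8, 2 were higher in Th1 (7.26%) and 3 lower (8.69%), and between Th17 and CD8, 5 were higher in Th17 (22.8%) and 3 lower (24.3%). In bulk RNA, fewer cells that make a transcript and less of it per cell cannot be told apart.

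**Figure D1:**
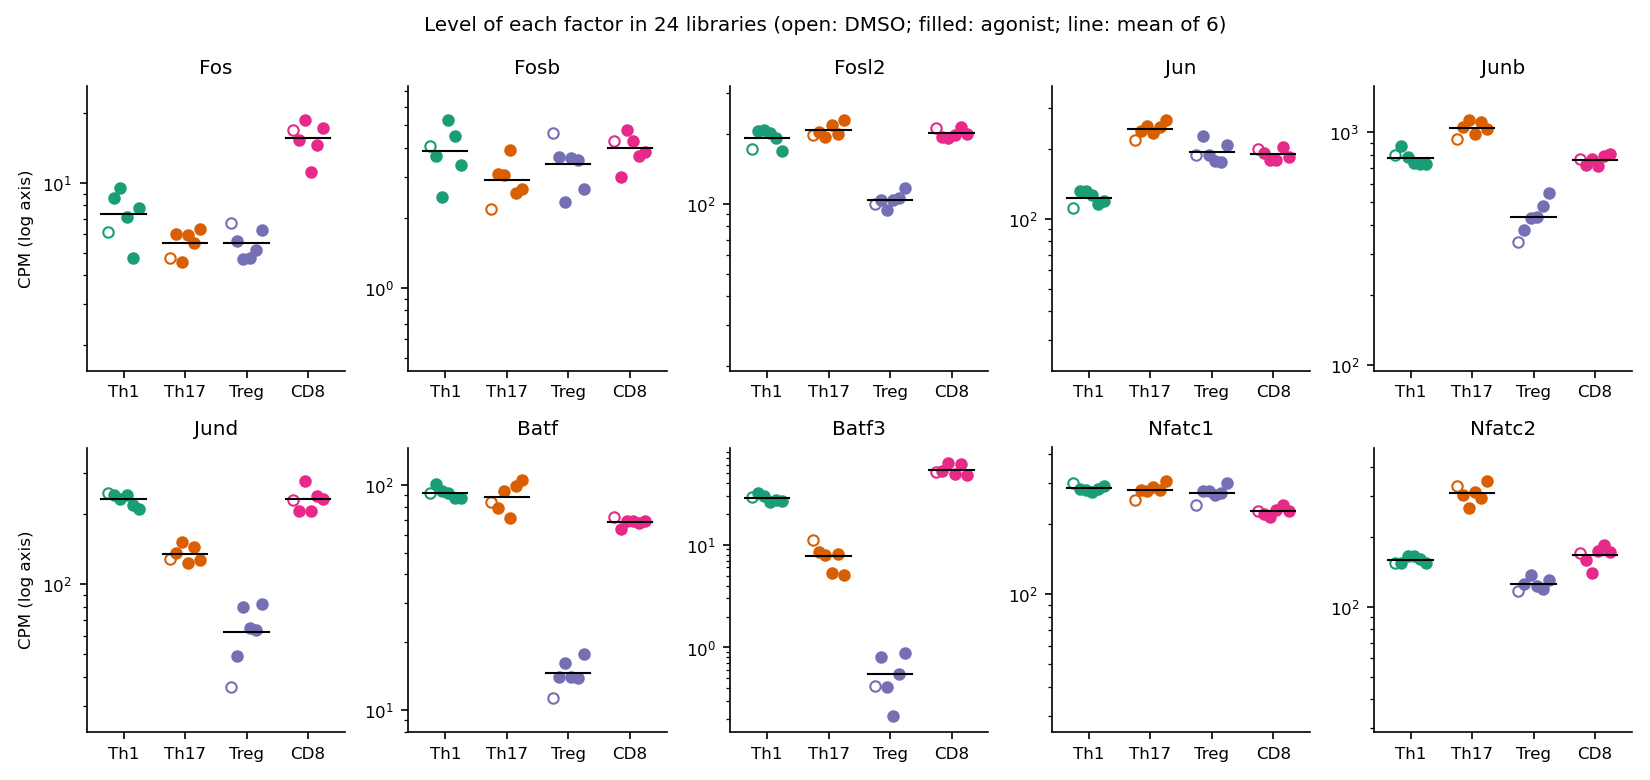
Level of each factor in CPM (log axis) in the 24 libraries, by cell type; open circles are DMSO, filled circles the 5 agonists, and lines the mean of 6 libraries. Batf3 forms 4 separate tiers. Batf, Fosl2, Junb, Jund and Nfatc2 are lowest in Treg with no overlap, and Fos is highest in CD8 with no overlap. The means of Nfatc1 and Fosb span ratios of 1.26 and 1.37.

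Batf3 showed the widest range. Its levels (lowest, median and highest of 6 libraries) were 47.2, 51.3 and 62.9 CPM in CD8, 26.1, 28.1 and 31.5 in Th1, 5.08, 8.00 and 11.1 in Th17, and 0.213, 0.486 and 0.888 in Treg. No library of a cell type overlapped with the next one down. Each step was larger than the spread between libraries: CD8 lay above Th1 by a log2 fold change of 0.92 ± 0.12 (SE, adjusted p = 3.09e-06), Th1 above Th17 by 1.91 ± 0.13 (adjusted p = 4.11e-12), and Th17 above Treg by 3.76 ± 0.20 (adjusted p = 6.68e-15). Treg minus CD8 was -6.58 ± 0.18, with a 95% interval of -6.96 to -6.20. The Treg value rests on 4 to 18 counts per library, 69 in all, against 764 to 1165 in each CD8 library. Dendritic cells also make Batf3. Over all 6 libraries of a cell type, Clec9a had 0 to 2 counts, Siglech 0 to 7 and Xcr1 4 to 45, and the summed level of the 5 dendritic markers, nearly all Zbtb46, was given above. Their part in the Batf3 levels was not tested.

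Batf, the founding member of its family, was low in Treg, and the other cell types lay closer together. Its levels were 87.4, 91.8 and 100.7 CPM in Th1, 70.9, 88.6 and 104 in Th17, 63.4, 68.9 and 72.2 in CD8, and 11.4, 14.0 and 17.7 in Treg. Every Treg library lay below every other library. The log2 fold change was 2.67 ± 0.09 for Th1 minus Treg, 2.60 ± 0.09 for Th17 minus Treg and -2.24 ± 0.09 for Treg minus CD8 (adjusted p = 8.18e-18 for the last). Th1 and Th17 did not differ beyond their spread (0.07 ± 0.08, adjusted p = 0.504). CD8 lay below Th17 by 0.36 ± 0.08 (adjusted p = 0.000556), with overlapping libraries. Genes of ribosomal proteins were nearest to it in profile. By root mean square difference of centred log2 CPM over the 24 libraries, the 3 of 10485 protein-coding genes closest to Batf were Rps15, Rpl19 and Rpl18, at 0.102, 0.102 and 0.115, where the profile of Batf itself has an SD of 1.13.

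Among the JUN genes, Junb was highest in Th17 and lowest in Treg. Its levels were 935, 1043 and 1130 CPM in Th17, 732, 760 and 871 in Th1, 714, 768 and 810 in CD8, and 338, 431 and 547 in Treg. Th17 and Treg did not overlap with any other cell type. Th17 exceeded Th1 by 0.42 ± 0.08 on the log2 scale (adjusted p = 0.000112), and CD8 exceeded Treg by 0.82 ± 0.08 (adjusted p = 1.03e-09), while Th1 and CD8 differed by 0.03 ± 0.08 (adjusted p = 0.868). Junb overlaps Prdx2, a peroxiredoxin gene on the opposite strand, by 351 bases. The strand setting of the counting is not given, so reads there may have been assigned to either gene or to neither. Junb had 337062 counts and Prdx2 74612 over all libraries. The nearest profiles were those of Map2k3 (0.1), a kinase upstream of p38, Tmem50a (0.114) and Spcs2 (0.12).

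Jund, the JUN family member that is typically made at a steady level in resting cells, split the cell types differently. Its levels were 210, 237 and 246 CPM in Th1, 205, 231 and 276 in CD8, 124, 132 and 152 in Th17, and 35.9, 63.9 and 82.4 in Treg. Th1 and CD8 overlapped and differed by 0.02 ± 0.12 (adjusted p = 0.957), whereas CD8 exceeded Th17 by 0.77 ± 0.12 (adjusted p = 1.11e-05) and Th17 exceeded Treg by 1.13 ± 0.12 (adjusted p = 2.05e-08), in each case with no overlap. The genes closest in profile were the chaperones Hspd1 (0.136) and Hspa5 (0.149) and the actin-binding Tmsb4x (0.149). A long noncoding gene, Gm11175, overlaps Jund by 919 bases on the opposite strand and had 0 counts. Jund itself is 1667 bases long, and how reads in the overlap were counted is not known.

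Jun, the classical partner of Fos, was lowest in Th1. Levels were 111, 123 and 132 CPM in Th1, 178, 188 and 203 in CD8, 176, 188 and 228 in Treg, and 219, 243 and 266 in Th17. All Th1 libraries lay below all others, and CD8 exceeded Th1 by 0.63 ± 0.06 (adjusted p = 4.2e-08). Treg and CD8 did not differ beyond their spread (0.03 ± 0.06, adjusted p = 0.659), and Th17 exceeded Treg by 0.32 ± 0.06 (adjusted p = 6.03e-05). It was the 1 member that was higher in Treg than in Th1, by 0.66 ± 0.06. The opposite-strand noncoding gene Junos overlaps it by 689 bases and had 1253 counts, against 84923 for Jun. The nearest profiles were those of Rbpj (0.143), the DNA-binding effector of Notch, Dipk2a (0.144) and Klf13 (0.167).

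Fosl2 was the FOS gene with the highest level per gene length in each cell type, and it was low in Treg alone. Its levels were 169, 197 and 208 CPM in Th1, 193, 201 and 229 in Th17, 191, 198 and 214 in CD8, and 93.7, 104 and 117 in Treg. Treg lay below Th1 by 0.88 ± 0.07 (adjusted p = 2.51e-12) with no overlap. Th1, Th17 and CD8 did not differ from one another beyond their spread, the largest of the 3 differences being -0.11 ± 0.06 for Th1 minus Th17, which had an adjusted p of 0.0482 without the Th1 WMS-64 library. Among the members themselves, Fosl2 and Junb had the most similar profiles, at a root mean square difference of 0.203 on the log2 scale. Sash3, an adaptor of lymphocyte signalling, was closer still to Fosl2 at 0.096, followed by Esyt1 and Abcf2.

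Fos, an immediate early gene whose transcript rises and decays within a short time of stimulation, was low throughout and highest in CD8. Levels were 11.2, 16.1 and 18.6 CPM in CD8, 4.75, 7.47 and 9.47 in Th1, 4.69, 5.39 and 6.71 in Treg, and 4.59, 5.74 and 6.32 in Th17. CD8 did not overlap with any other cell type and exceeded Th1 by 1.10 ± 0.14 (adjusted p = 2.65e-06). Th17 and Treg had the same mean to 3 digits, 5.53 CPM, with a difference of 0.01 ± 0.15 and a 95% interval of -0.30 to 0.32. Th1 was higher than Th17 by 0.38 ± 0.15 (adjusted p = 0.0373) and higher than Treg by 0.39 ± 0.15 (adjusted p = 0.0197), with overlapping libraries. The call against Th17 was lost without any of 8 libraries (Th1 WMS-200, WMS-64, WMS-75 or WMS-83, or Th17 DMSO, WMS-200, WMS-64 or WMS-83), at adjusted p of 0.0523 to 0.135, and the call against Treg was lost without Th1 WMS-64 (0.066) or Treg WMS-64 (0.0611). Ppp3cc, a catalytic subunit of calcineurin, was the second nearest profile to Fos at 0.314, after Vat1 at 0.294 and before Emilin1.

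Fosb, the other immediate early FOS gene here, was the member that did not pass the test across the 4 cell types (adjusted p = 0.126). It was measured at 3.01, 4.06 and 4.77 CPM in CD8, 2.47, 3.87 and 5.27 in Th1, 2.35, 3.59 and 4.65 in Treg, and 2.18, 2.86 and 3.92 in Th17, which overlap in every pair. The largest difference, Th17 minus CD8, was -0.45 ± 0.19 (adjusted p = 0.058). It passed the threshold without Th17 WMS-64 (0.0467), Treg DMSO (0.0476) or CD8 WMS-200 (0.0362). With the WT number as a block it was -0.96 (adjusted p = 0.0198). There the Th17 level rests on its DMSO and WMS-83 libraries, with 34 and 43 counts, because number 1 occurs in Th17 alone. Th1 minus Th17 passed without Th1 WMS-64 (adjusted p = 0.0437). Dennd1b, Atpsckmt and Rapgef1 were nearest to it in profile, at 0.249 to 0.259, where its own SD was 0.339.

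Nfatc1 and Nfatc2 encode calcineurin-regulated factors, and Nfatc1 is known to be induced by its own family in activated T cells. Nfatc1 was the most even of the members. Levels were 253, 281 and 305 CPM in Th17, 276, 283 and 302 in Th1, 241, 275 and 299 in Treg, and 215, 227 and 242 in CD8. CD8 was lower than Th1 by 0.33 ± 0.05 and lower than Treg by 0.26 ± 0.05 (adjusted p = 0.000112), which made Nfatc1 the 1 member higher in Treg than in CD8, while Th1, Th17 and Treg did not differ beyond their spread. With offsets for gene length, Treg no longer differed from CD8 (0.06, adjusted p = 0.276) and lay below Th1 by 0.28 (adjusted p = 3.83e-05) and below Th17 by 0.21 (adjusted p = 0.00121). Nfatc2 was high in Th17: 266, 306 and 346 CPM there, against 140, 171 and 184 in CD8, 154, 158 and 166 in Th1, and 117, 124 and 138 in Treg. No other library reached the lowest Th17 library. Th17 exceeded CD8 by 0.89 ± 0.07 (adjusted p = 1.19e-11), CD8 and Th1 did not differ beyond their spread (adjusted p = 0.628), and Th1 exceeded Treg by 0.34 ± 0.07 (adjusted p = 4.82e-05), a difference of 0.69 with length offsets. The corresponding Treg minus CD8 difference went from -0.40 to -0.72. Nearest in profile were Pogk, Extl3 and Phc2 for Nfatc1, at 0.0923 to 0.0945, and Antxr2 (0.128), Tex261 (0.14) and Sgpl1 (0.143) for Nfatc2. The opposite-strand noncoding gene Gm50211 overlaps Nfatc1 by 2571 bases and had 861 counts, against 120898 for Nfatc1.

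**Figure D2:**
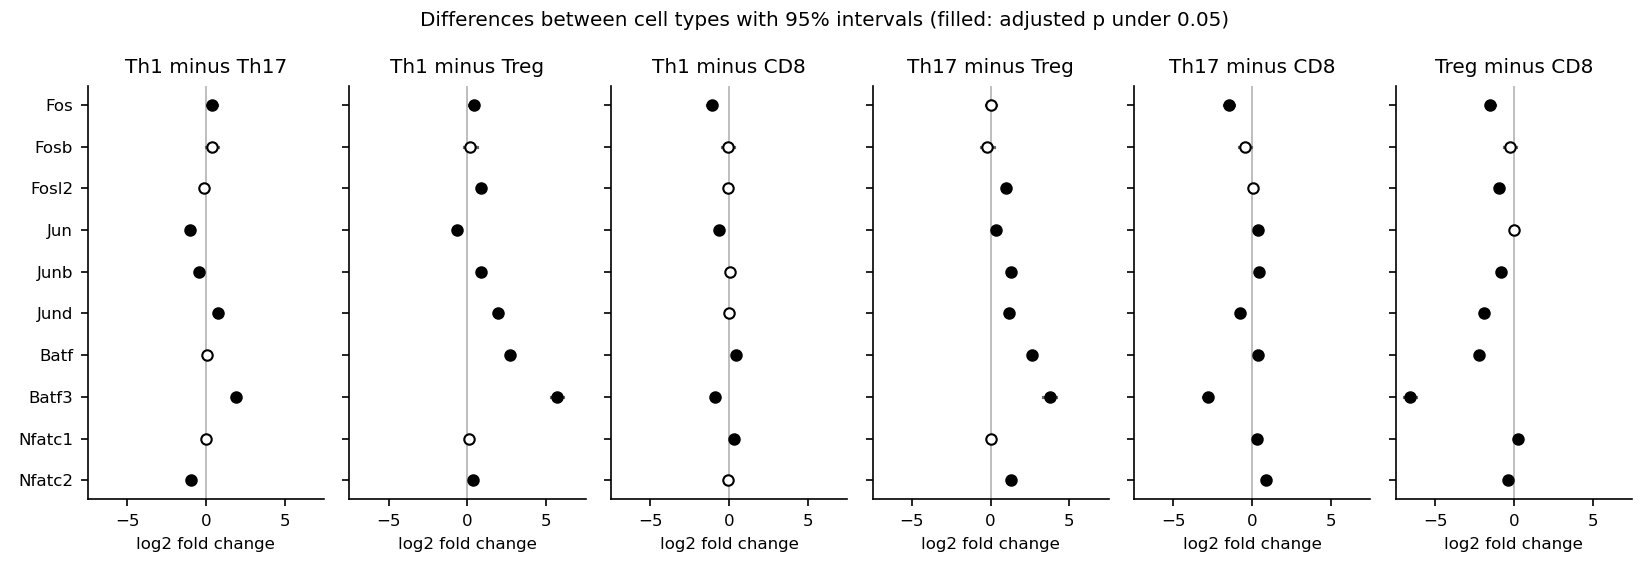
Log2 fold change of each factor for the 6 pairs of cell types with 95% intervals from edgeR; filled points have an adjusted p under 0.05. The 3 comparisons with Treg hold the widest differences, up to -6.58 for Batf3 in Treg minus CD8, and Th1 minus CD8 holds the narrowest range.

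The members furthest below Th1 and CD8 in Treg, Batf3, Batf and Jund, are also the 3 shortest, at 1597, 1406 and 1667 bases in the gene table. Against Th17 the order was different, with Nfatc2, the longest member at 10578 bases, at 1.29 and Junb at 1.27, both above Jund at 1.13. In the gene table the median of all genes tested is 3758 bases. Over all genes tested, the Spearman correlation of gene length with the log2 fold change was -0.13 for Th1 minus Treg and 0.12 for Treg minus CD8, across 15885 genes, which are not independent replicates. With offsets for gene length the Treg minus CD8 differences were -6.35 for Batf3, -1.97 for Batf and -1.69 for Jund, against -6.58, -2.24 and -1.91 without them, and all 3 stayed past the threshold. The part that the low ribosomal-protein share of the Treg libraries plays in these differences was not tested.

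Levels of different genes can be set side by side only per length. The lengths were not corrected for overlaps with genes on the opposite strand. On the scale of CPM per kilobase of gene length, Junb made up 74.2% ± 0.42 (SD, n = 6) of the summed JUN family in Th17, 65.6% ± 2.65 in Treg, 65.5% ± 1.18 in Th1 and 62.6% ± 1.39 in CD8. Jund held 27.1% in Th1 and 26.2% in CD8 but 13.3% in Th17 and 12.9% in Treg, and Jun held 21.6% ± 3.83 in Treg against 7.48% ± 0.49 in Th1. The summed JUN family was 610 ± 41.2 CPM per kilobase in Th17, 530 ± 28.5 in CD8, 515 ± 30.7 in Th1 and 287 ± 41.4 in Treg. Fosl2 was 66.2% to 80.8% of the FOS family in each cell type, and Fos reached its largest share, 21.1% ± 3.16, in CD8. The summed FOS family was 31.4 ± 1.30 CPM per kilobase in CD8 and 15.6 ± 1.26 in Treg, so JUN transcripts exceeded FOS transcripts per length in every cell type. In the BATF family the split between Batf and Batf3 was 59.2% and 40.8% in CD8, 78.6% and 21.3% in Th1, 92.8% and 7.20% in Th17, and 96.8% and 3.19% in Treg. Thus the summed BATF level was nearly the same in Th1 (83.4 ± 4.68) and CD8 (82.3 ± 4.45) while its make-up differed, and it was 10.7 ± 1.64 in Treg. Nfatc1 was the leading NFATc transcript everywhere, from 42.9% in Th17, where Nfatc2 held 33.1%, to 56.2% in Treg.

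**Figure D3:**
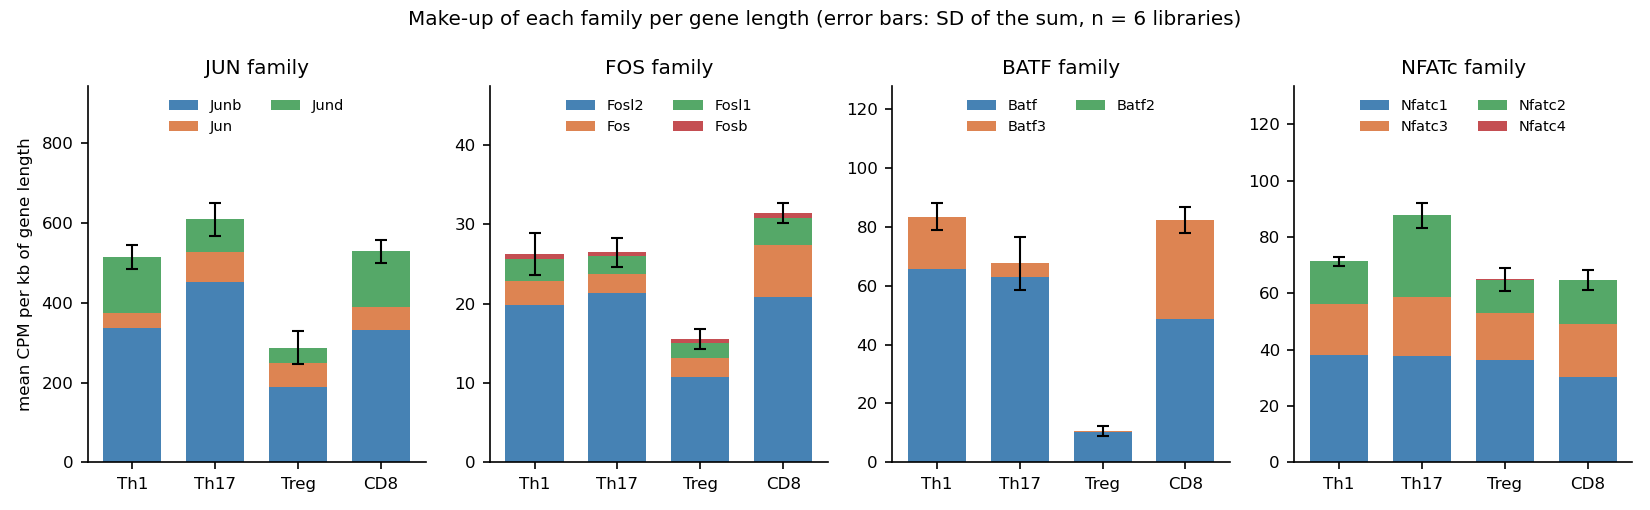
Mean CPM per kilobase of gene length of the JUN, FOS, BATF and NFATc genes stacked by cell type (linear axes from 0; error bars are the SD of the sum, n = 6 libraries). The BATF bar is 10.7 in Treg against 67.6 to 83.4 in the other cell types, and Batf3 fills 40.8% of it in CD8.

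Partners and regulators of these factors were read from 10 lists with 63 genes, of which 59 passed the filter and 55 differed between the cell types. BATF-JUN pairs bind DNA together with IRF factors. Irf4 was 1171 CPM ± 33.7 in Th1, 1027 ± 29.1 in Th17, 891 ± 19.2 in CD8 and 361 ± 72.0 (SD, n = 6) in Treg, so Batf and Irf4 were both lowest in Treg. Irf8 was lowest in Th17 at 238 ± 10.1 and 599 ± 69.7 in Treg. Of 10 other bZIP partners tested, 6 were higher and 4 lower in Treg than in CD8, and 1 higher and 7 lower in Th1 than in Th17. Atf3, a stress-induced zipper factor, was 55.7 CPM in CD8, 53.2 in Th1, 21.7 in Th17 and 3.65 in Treg. Jdp2, a repressor that pairs with JUN proteins, went the other way, at 3.01, 2.45, 8.39 and 11.1 in the same order.

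Genes of the calcium route to NFAT were divided. Of 8 genes of calcium release and entry, 6 were higher and 2 lower in Treg than in CD8. Itpr1, a calcium channel of the endoplasmic reticulum, was 292 CPM ± 41.1 in Treg and 135 ± 11.4 in CD8, whereas Orai1, the pore of the store-operated channel, was 30.7 ± 4.09 and 105 ± 9.30. Of 4 calcineurin genes, 1 was higher and 2 lower in Treg than in CD8. The regulatory subunit Ppp3r1 was 50.2 ± 7.85 in Treg against 122 to 136 elsewhere, and the catalytic Ppp3cc was highest in CD8 at 71.6 ± 4.78. Among 4 inhibitors, 3 were higher and 1 lower in Treg. That 1 was Rcan1, a feedback inhibitor of calcineurin whose gene is an NFAT target, at 10.2 ± 1.74 in Treg and 35.6 ± 3.49 in Th17, while Rcan3 was 132 ± 7.05 in Th17 and 50.9 ± 2.78 in CD8. Of 5 NFAT kinases, 1 was higher and 4 lower in Treg than in CD8, with Gsk3b at 86.2 and 158 CPM and Dyrk2 at 78.4 and 57.9. Of the 2 other NFAT factors tested, 1 was higher and 1 lower in Treg. Nfat5, which responds to osmotic stress and not to calcineurin, was 732 ± 84.8 in Treg and 424 ± 86.6 in CD8, and Nfatc3 was 193 ± 25.6 and 219 ± 11.9.

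Upstream of AP-1, the list of MAP kinases and serum response factors had 10 genes tested, with 6 lower and 2 higher in Th1 than in Th17, and 4 higher and 3 lower in Treg than in CD8. Elk4 was 176 CPM ± 17.1 in Treg and 78.9 to 99.4 elsewhere, and Map2k4, a kinase of the JNK route, was 43.9 ± 4.15 in Treg and 82.6 to 97.2 elsewhere. Of 4 genes for ubiquitin ligases of JUN proteins and their adaptors, 1 was higher and 2 lower in Treg than in CD8. Ndfip1, which activates Itch, was 184 ± 22.2 and 383 ± 14.5, and Fbxw7 was 35.0 ± 2.61 and 60.4 ± 5.16. Of 10 known target genes of NFAT and AP-1, 9 were lower in Treg than in CD8, with a median log2 fold change of -0.72, and the other, Il4, was at 0.12 (adjusted p = 0.821). Ifng was 1369 ± 57.3 in CD8 and 0.256 ± 0.14 in Treg, and Il21 was 45.9 ± 5.83 and 0.142 ± 0.20, but both mark particular T cell lineages. Background shares for these comparisons are those given above, and no test of a list was run.

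No member differed between the agonists as a group and DMSO. With the 5 agonists averaged over the 4 cell types, 0 members differed from DMSO (0% of all genes, with 504 genes and 0 members at an unadjusted edgeR p under 0.05). DESeq2 and limma-voom also called 0 members, and of all genes DESeq2 called 0 and limma-voom 5. The estimates ran from -0.15 ± 0.13 for Batf3 to 0.18 ± 0.11 for Jund (adjusted p = 0.992 for both), and all 10 intervals lay within 0.5 on the log2 scale. Against DMSO, 0 members were called for any of the 5 agonists, and so were 0% of all genes, and DESeq2 and limma-voom also called 0 members. At an unadjusted edgeR p under 0.05 there was 1 member each for WMS-64 and WMS-75. These were Jund with WMS-64, at 0.35 ± 0.15 (adjusted p = 0.752, or 0.0497 with no filter on low counts), and Batf3 with WMS-75, at -0.38 ± 0.17 (adjusted p = 0.9999). The next largest estimates were -0.26 ± 0.24 for Fosb with WMS-64 and 0.19 ± 0.23 for Fosb with WMS-75. With WMS-200 the largest were Fosb at -0.15 ± 0.24 and Jun at 0.15 ± 0.08, with WMS-76 Fos at -0.19 ± 0.18 and Jund at 0.17 ± 0.15, and with WMS-83 Batf3 at -0.30 ± 0.18 and Fosb at -0.27 ± 0.24.

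The agonists belong to 1 chemical series and were given at the same dose, so they were compared with each other in 10 pairs, with 4 libraries each. No member differed between any 2 of them, with edgeR, DESeq2 or limma-voom. The smallest adjusted p of a member over all genes and the 10 pairs was 0.9997, and 0 of 158850 tests in that family passed. Within single pairs 0% of all genes passed, apart from 0.0063% for WMS-200 against WMS-76, and 2 of the 100 member values had an unadjusted edgeR p under 0.05. Both involve Batf3 and WMS-75: it was lower with WMS-75 than with WMS-200 by 0.38 ± 0.17 and than with WMS-64 by 0.35 ± 0.17. Of the 100 intervals, 76 lay within 0.5 and 100 within 1 on the log2 scale, the widest being that of Fosb for WMS-64 minus WMS-83, from -0.48 to 0.51.

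Inside a cell type the 5 agonist libraries were set against the single DMSO library, whose spread was taken to equal that of the others. In Th1 and CD8, 0 members were called (0% and 0.0063% of all genes), with 0 at an unadjusted edgeR p under 0.05 and 0 with DESeq2 and limma-voom, and 8 and 7 of the 10 intervals lay within 0.5. The largest estimates were 0.30 ± 0.29 for Fos and 0.18 ± 0.12 for Fosl2 in Th1, and -0.14 ± 0.26 for Fos and -0.13 ± 0.36 for Fosb in CD8, each with an adjusted p of 1. In Th17, 0 members were called (0.0378% of all genes), also with DESeq2 and limma-voom. There Batf3 was 11.1 CPM with DMSO and 8.58 with WMS-200, 8.11 with WMS-76, 7.90 with WMS-64, 5.33 with WMS-75 and 5.08 with WMS-83, below DMSO in 5 of 5 libraries, at -0.66 ± 0.25 with an adjusted p of 1, and it was the 1 member with an unadjusted edgeR p under 0.05. Fosb had the next largest estimate in Th17, 0.49 ± 0.40, and was above DMSO in 5 of 5 libraries. The Th17 DMSO library carries WT number 2, which no agonist library of that cell type has.

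**Figure D4:**
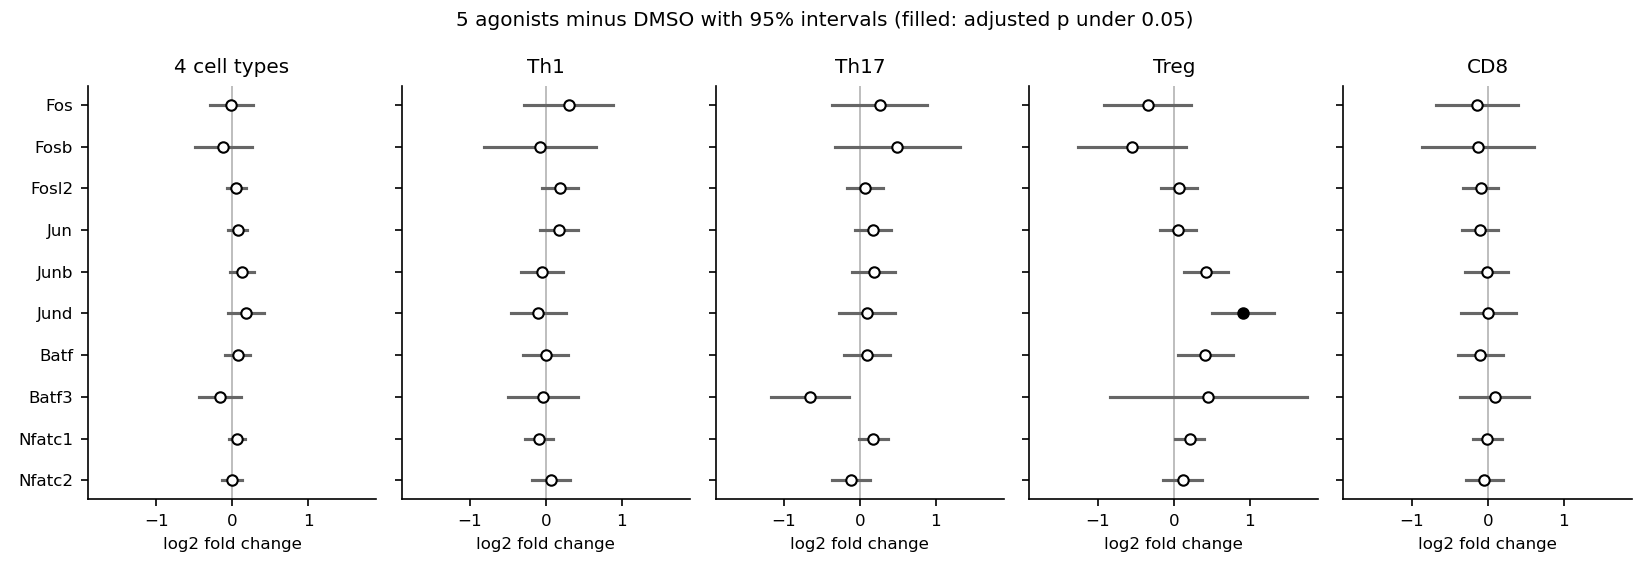
Log2 fold change of the 5 agonists minus DMSO for each factor, over the 4 cell types and inside each, with 95% intervals from edgeR; the filled point has an adjusted p under 0.05. Jund in Treg, at 0.91, is the single filled point, and intervals over the 4 cell types all lie within 0.5.

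In Treg, Jund was higher with the agonists than with DMSO, which cannot be told apart from the WT number except for WMS-200. It was 35.9 CPM with DMSO and 49.1 with WMS-200, 63.3 with WMS-76, 64.6 with WMS-75, 79.5 with WMS-64 and 82.4 with WMS-83, so 5 of 5 agonist libraries lay above the DMSO library, and their mean was 67.8 ± 13.5 (SD, n = 5). The log2 fold change was 0.91 ± 0.20 (adjusted p = 0.00719). It was the 1 member called, beside 8.82% of all genes in this comparison, so 1 of 10 members is near the background. Junb was also above DMSO in 5 of 5 libraries, 338 CPM against 379, 429, 432, 482 and 547, at 0.43 ± 0.14 with an adjusted p of 0.0552. Its adjusted p was 0.0392 with DESeq2, 0.0447 with limma-voom, 0.00495 with no filter, 0.048 without Th17 WMS-75 and 0.0106 without Treg WMS-200. Batf was 11.4 CPM with DMSO and 13.9 to 17.7 with the agonists (0.42 ± 0.18, adjusted p = 0.146), and Nfatc1 was 241 and 266 to 299 (0.21 ± 0.09, adjusted p = 0.178).

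The values of Jund and Junb also split by WT number, while those of Batf and Nfatc1 overlap between the numbers. The DMSO and WMS-200 libraries of Treg carry number 3 and had the 2 lowest Jund levels, 35.9 and 49.1 CPM, while the 4 libraries with number 2 ranged from 63.3 to 82.4 with no overlap. Markers of the cell type split the same way: Ikzf2, which encodes Helios, was 1137 and 1103 CPM in the number 3 libraries and 540 to 601 in the others, and Foxp3 was 162 and 208 against 290 to 357. The share of counts from ribosomal-protein genes was 1.60% and 1.98% against 2.12% to 2.68%. Their part in the Jund result was not tested. Between the libraries with number 3, 1 of DMSO and 1 of WMS-200, the Jund difference was 0.45. Within Treg, the WT number as a block also sets only WMS-200 against DMSO, and the agonist difference was then 0.45. With the 6 Treg libraries fitted by themselves it was 0.84 (adjusted p = 0.194). Whether the agonist effect differed between cell types was tested directly: 0 members passed (0.176% of all genes), with 1 at an unadjusted edgeR p under 0.05, which was Jund (adjusted p = 0.143). DESeq2 called 1 member in that test and limma-voom 0.

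**Figure D5:**
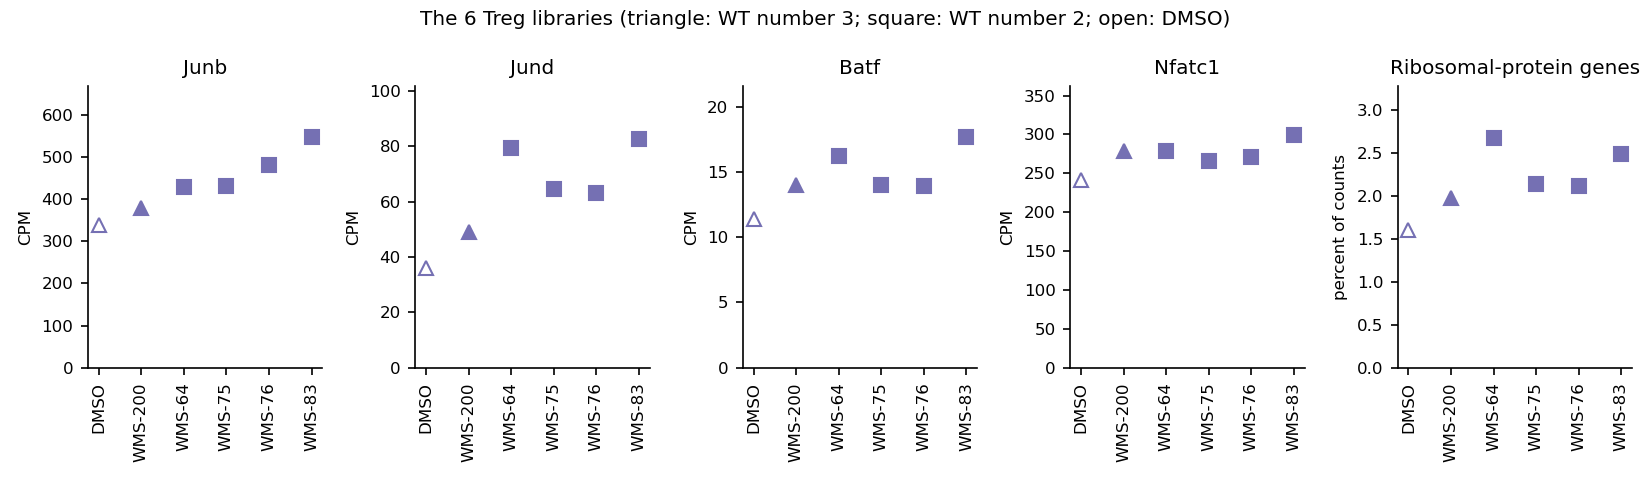
Levels of Junb, Jund, Batf and Nfatc1 (CPM) and the percent of counts from ribosomal-protein genes in the 6 Treg libraries; triangles carry WT number 3, squares number 2, and the open symbol is DMSO (linear axes from 0). Jund is 35.9 and 49.1 CPM in the number 3 libraries and 63.3 to 82.4 in the number 2 libraries.

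Over the 4 cell types, the 59 genes tested from the partner and pathway lists had a median agonist log2 fold change of 0.03, and no adjusted p was below 0.992. Csf2, a cytokine gene with composite NFAT and AP-1 elements, was the 1 gene of these lists for which the agonist effect differed between cell types (adjusted p = 0.0266, or 0.0556 with the WT number as a block). In Treg it was 4.39 CPM with DMSO, 10.5 with WMS-200 and 12.7 to 16.6 with the others, a log2 fold change of 1.64 (adjusted p = 0.00171). With the block, which within Treg sets the WMS-200 library alone against the DMSO library, the fold change of Csf2 was 1.26. Its estimates were -0.10 in Th1, -0.74 in Th17 and -0.46 in CD8, each with an adjusted p of 1. Irf4 in Treg was 248 CPM with DMSO, 297 with WMS-200 and 387 to 431.5 with the others, which also splits by WT number. Its difference was 0.63 (adjusted p = 0.0047). The other genes of these lists called within Treg were Tnf, Cd40lg, Atf3, Elk3 and Srf, each higher with agonists, beside 8.82% of all genes. They were at 1.02 (adjusted p = 0.00719), 0.98 (0.0107), 0.82 (0.0333), 0.40 (0.0308) and 0.39 (0.0404) in that order. Except for WMS-200, agonist and WT number cannot be told apart in these calls. Atf3 was 2.22 and 3.67 CPM in the number 3 libraries and 3.75 to 4.37 in the number 2 libraries. Within Th17 the called gene of these lists was Fasl, a death ligand, at 1.55 (adjusted p = 0.0244), beside 0.0378% of all genes. That call rests on a single DMSO library with WT number 2, which no Th17 agonist library has. Agonist and WT number therefore cannot be told apart for Fasl.

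The 6 libraries of a cell type each had another treatment, so their spread includes any effect of treatment and, in Treg and Th17, of the WT number. The median coefficient of variation of the 10 members was 15.0% in Treg, 8.62% in Th17, 7.42% in CD8 and 7.01% in Th1, and that of all genes with a mean of at least 1 CPM was 15.8%, 10.9%, 8.54% and 8.74%. The widest were Batf3 in Treg at 46.9%, where 4 to 18 counts lie behind each value, and Batf3 in Th17 at 29.1%.

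In the coordinates of the gene table, whose build the sources used here do not give, Fos lies on chromosome 12 at 85520664 to 85524047 and Batf on the same strand of that chromosome at 85733443 to 85755861. Batf3 lies on chromosome 1 at 190830044 to 190841142, Jun on chromosome 4 at 94937271 to 94940459, and Fosl2 on chromosome 5 at 32293145 to 32315186. Junb and Jund lie on chromosome 8, at 85701113 to 85705347 and 71151599 to 71153265, Fosb on chromosome 7 at 19036621 to 19043976, Nfatc2 on chromosome 2 at 168318330 to 168443577, and Nfatc1 on chromosome 18 at 80649420 to 80756286. The table gives 1 value per gene, so isoforms such as the short and long forms of Nfatc1 were not separated.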

How the data were processed

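The data are the authors' deposited raw counts per gene for 24 poly(A)-enriched libraries. Per the submitters' processing notes fastp, HISAT2 and featureCounts were used. The sources used here give no version, strand setting, genome build or annotation release. Each value column belongs to 1 labelled sample. A Th1 library whose title reads Th17 was placed by its source name, characteristics and column, and the CD8 libraries are named Tc1 in the columns. In the titles each compound code except WMS-76 carries a suffix that differs between cell types. Libraries were grouped by the code without the suffix, as in the treatment protocol. Each code is thus taken to be the same compound in all cell types.

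Genes were filtered with filterByExpr by cell type (minimum count 10). CPM were scaled by TMM. Quasi-likelihood models of edgeR 4.0.16 (R 4.3.3, robust dispersion) were fitted to all genes tested and all libraries, the first with cell type and compound (15 residual degrees of freedom, biological coefficient of variation 0.133), the second with agonist or DMSO within each cell type (16 and 0.127). Benjamini-Hochberg adjustment covered the 15885 genes tested, an adjusted p under 0.05 was called, and intervals are at 95%. The fits were tested on simulated data.

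All 10 members are named. Near profiles used log2 CPM with a prior count of 2 and protein-coding genes with a mean log2 CPM of at least 1, and the profiles nearest to Batf3 are not reported here. From each list the 2 genes with the widest range between cell types are named, and for agonists the called members or, with none, the 2 with the largest estimates. Junb, Batf and Nfatc1 in Treg, the list genes called within a cell type, and the WT number split, were described after their values had been seen. The members and lists were chosen with earlier results of these data known.

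Alternatives were DESeq2 1.42.0, limma-voom (limma 3.58.1), another normalization (RLE), no filter, length offsets, the WT number as a block, subsets of libraries and leaving out each library. The number does not mark a shared animal or day in the labels, so it was not used in the main models. Depth was 15188284 to 21946887 counts per library.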

Additional observations from a re-analysis of the deposited data

Results flagged for a closer look

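The agonist effect on Csf2, the gene of the cytokine GM-CSF, differed between the cell types in a test of the difference itself (edgeR adjusted p = 0.0266). The estimate was 1.64 on the log2 scale in Treg, where 5 of 5 agonist libraries lay above the DMSO library, and it was negative in Th1, Th17 and CD8. With the WT number as a block the adjusted p of this difference was 0.0556.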

How the results depend on the processing

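No value changed sign past the threshold under any alternative. With 1 library per combination, every agonist result inside a cell type rests on a single DMSO library, and low counts limit Fos, Fosb and, in Treg, Batf3. For agonists within Treg, 1 member was called in the report, 2 with DESeq2, 2 with limma-voom and 2 with no filter. It was 0 with the WT number as replicate block, 0 with only the 6 Treg libraries and 0 with the Treg libraries of WT number 3 alone, an alternative chosen after seeing the data that sets 1 library against 1 and takes its spread from the other cell types. Within Treg the block also sets WMS-200 against DMSO, 1 library against 1. For the agonist effect between cell types, 0 became 1 with DESeq2 and 1 with no filter, and for WMS-64 against DMSO 0 became 1 with no filter. Genes called within Treg went from 1401 to 17 with the block, 4 with only the 6 libraries and 26 with WT number 3 alone.

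The WT numbers repeat within cell types and are not explained, so they share only a number. With the block, 29 of the 30 member differences between cell types that it could estimate kept their side of the threshold. The other, Fosb between Th17 and CD8, gained it, with the Th17 level resting on the DMSO and WMS-83 libraries. Inside cell types 39 of 40 kept their side. Leaving out each library gave 5 to 7 members for Th1 against Th17, 7 to 8 for Th1 against Treg, 8 to 9 for Th17 against CD8, 1 to 2 for agonists within Treg and 0 to 1 for the agonist effect between cell types. The other counts of members did not move in these settings. Over the 23 of these settings that keep the Treg DMSO library, Jund in Treg was 0.83 to 1.00. It was 0.45 with the block and 0.45 with WT number 3 alone. Both of these set the WMS-200 library against the DMSO library within Treg, so they are not separate checks. Without length offsets Fos was higher in Th1 than in Th17 and Treg, and with them the adjusted p was 0.0731 and 0.104. For Fos between Th1 and Th17 it was 0.0664 with no filter and 0.0507 with only those 2 cell types, and for Fosb between Th17 and CD8 it was 0.046 with DESeq2 and 0.0453 without the Treg libraries.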
